A study of Mus musculus with 17 samples.

Results

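The 7 genes of the mouse kainate receptor family were examined in bulk RNA-seq of dorsal hippocampus. They were chosen by symbol and comprised the subunit genes Grik1, Grik2, Grik3, Grik4 and Grik5 and the auxiliary protein genes Neto1 and Neto2. All 7 were found among the 24498 symbols of the count table and all 7 passed the low-count filter in each comparison, so no member was lost. Poly(A) RNA came from 1 mm-thick slices holding CA1, CA2, CA3 and the dentate gyrus, taken from wild type (WT) mice or mice lacking Acss2, which encodes acetyl-CoA synthetase 2 (ACSS2KO, here KO). WT and KO animals both came from homozygous crosses of first-generation offspring of heterozygotes. At 6 months of age each mouse had received an intracranial injection of PBS or of AD Tau, which is pathological tau purified from frontal cortex of human Alzheimer's disease brain. The labels gave 17 libraries in 6 groups. These were male WT PBS (replicates 791, 792 and 793), male WT Tau (771, 772 and 773), male KO PBS (751, 752 and 753), male KO Tau (711, 712 and 713), female WT Tau (331 and 341) and female KO Tau (314, 324 and 325). The series had no PBS-injected females, and the AD Tau is a seed of human protein given to mice that carry no tau transgene in the labels. The series asked how the absence of ACSS2 and the presence of pathological tau interact.

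Kainate receptors are glutamate-gated ion channels made of 4 subunits. GluK1, GluK2 and GluK3, encoded by Grik1, Grik2 and Grik3, can form channels by themselves, whereas GluK4 and GluK5, encoded by Grik4 and Grik5, bind glutamate more tightly and need a partner from the first set. Neto1 and Neto2 are single-pass membrane proteins that bind these receptors and slow their gating. In the hippocampus kainate receptors are best known from the mossy fibre synapse, where axons of dentate granule cells contact CA3 pyramidal cells and where they act on both sides of the synapse. Interneurons also carry them.

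Library totals ran from 14183131 to 22463635 counts, and Acss2 was at 44.0 to 54.6 CPM (counts scaled to library size) in the 8 WT libraries and at 3.08 to 8.81 CPM in the 9 KO libraries. The lowest member count in a library was 109 (Grik1), so each member was well above the limit that a count of 0 allows (3 counts, 0.134 to 0.212 CPM, counting error only). Some libraries stood apart in the marker genes of hippocampal fields and of neighbouring tissue. The dentate granule list (9 genes, 9 of 9 with counts) had its lowest scores, 2.56 and 3.40 in mean log2 CPM, in male KO PBS 752 and male KO Tau 712, against 4.16 to 5.59 in the other 15 libraries. The same libraries had the highest scores of a 6-gene neocortex list (6.34 and 6.10). Male KO Tau 713 was next at 5.92, and the remaining libraries were at 4.22 to 5.36. A 9-gene striatum list was at 5.42 in male KO PBS 752 and at 2.73 to 4.16 elsewhere. The 7-gene CA1 pyramidal list was at 5.55 in female WT Tau 331, 5.59 in male KO PBS 752 and 5.69 in female KO Tau 325 and at 6.38 to 6.91 elsewhere. In bulk samples fewer cells of a type and less RNA per cell cannot be told apart.

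Levels were first compared between the genes per kilobase of exon (FPKM, from counts, library totals and the union of the annotated exons). Grik5 led by a wide margin at 47.7 ± 7.04 FPKM (SD, n = 17). Neto2 (9.85 ± 1.60 FPKM), Neto1 (9.68 ± 2.15 FPKM), Grik4 (8.30 ± 2.03 FPKM) and Grik3 (7.70 ± 3.06 FPKM) followed, and Grik2 (3.53 ± 0.565 FPKM) and Grik1 (1.86 ± 0.466 FPKM) were lowest. Each gene was then set against the next lower one within every library, with a two-sided sign-flip permutation test over the 17 libraries adjusted over the 6 pairs. Grik5 exceeded Neto2 in 17 of 17 libraries by 2.28 ± 0.358 on the log2 scale (adjusted permutation p = 6e-05). Grik3 exceeded Grik2 in 16 of 17 by 1.03 ± 0.727 and Grik2 exceeded Grik1 in 17 of 17 by 0.95 ± 0.425 (both adjusted permutation p = 6e-05). Neto1 exceeded Grik4 in 14 of 17 by 0.23 ± 0.258 (adjusted permutation p = 0.00336). No difference was called between Neto2 and Neto1 (0.04 ± 0.381, 9 of 17 libraries, adjusted permutation p = 0.637) or between Grik4 and Grik3 (0.18 ± 0.816, 10 of 17, adjusted permutation p = 0.453).

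**Figure D1:**
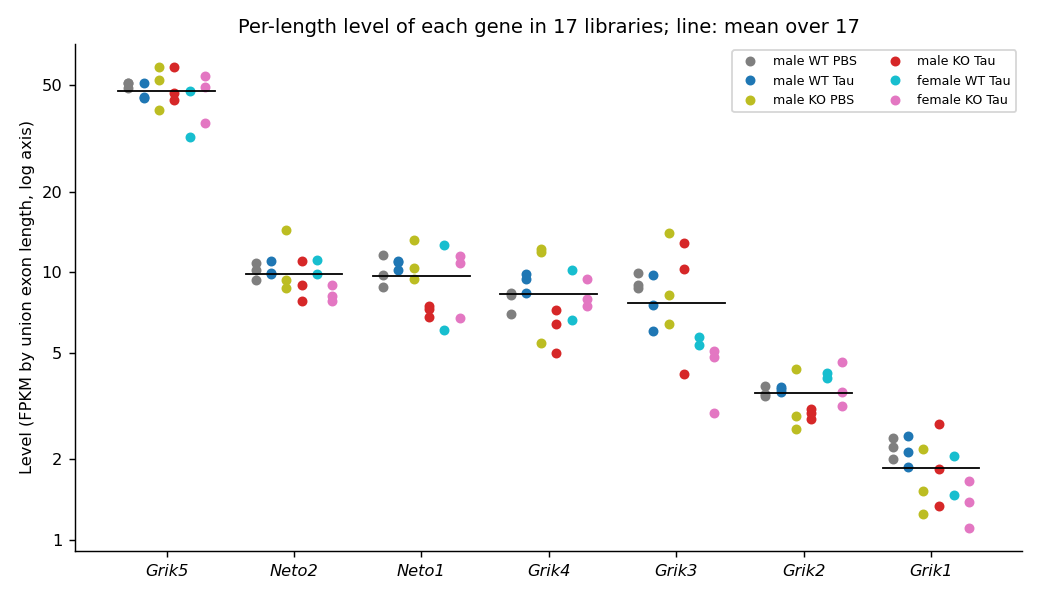
Level of each gene in FPKM (log axis, union exon length), 1 point per library coloured by group, with a line at the mean over 17 libraries. Grik5 stands above the others in each library, Neto2, Neto1, Grik4 and Grik3 lie between 2.98 and 14.4 FPKM, and Grik1 is lowest on average at 1.86 FPKM.

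The order in the middle depended on the exon length used. Grik2 has 13246 bases of union exon but a mean coding transcript of 3315 bases, and with the latter Grik2 was above Grik3 (log2 ratio of Grik3 to Grik2 -0.97, adjusted permutation p = 0.00024) and Neto1 above Neto2 (ratio of Neto2 to Neto1 -0.42, adjusted permutation p = 0.000768). Grik5 was first and Grik1 last under each of the 3 lengths. Of the summed FPKM of the 5 subunit genes, Grik5 made up 68.9% ± 4.07 (SD, n = 17, range 63.4 to 78.7%), Grik4 12.0% ± 2.42, Grik3 11.2% ± 4.53, Grik2 5.21% ± 1.32 and Grik1 2.73% ± 0.762. The high-affinity pair Grik4 and Grik5 together held 72.0 to 89.7%. The group means of the Grik5 share lay between 66.3% (female WT Tau) and 71.9% (female KO Tau). Shares of mRNA are not shares of receptor.

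Across the 12 comparisons among the 6 groups, 1 member passed a false discovery rate (FDR) of 0.05 over all genes tested with edgeR's quasi-likelihood test, and it did so in 1 comparison, Grik3 between the sexes. None of the 7 passed for Tau in WT males, Tau in KO males, the genotype by treatment interaction, the Tau effect averaged over genotypes or the sex by genotype interaction, where 0.0% of genes passed. None passed for KO in PBS males, KO Tau against WT PBS in males, KO in Tau males or the KO effect averaged over treatments (0.00662% of genes, which is Acss2 alone), nor for KO in Tau females (0.00649%, again Acss2). At an unadjusted p under 0.05, edgeR gave 0 members for Tau in WT males (1.86% of genes), 0 for KO in PBS males (4.42%), 1 for KO Tau against WT PBS (6.33%), 1 for KO in Tau males (4.71%) and 2 for Tau in KO males (7.95%). It gave 2 for the male interaction (4.18%), 1 for the averaged Tau effect (5.38%), 0 for the averaged KO effect (4.58%), 0 for KO in Tau females (2.89%) and 0 for the sex by genotype interaction (2.94%). The median log2 fold change of the 7 members was 0.0011 for Tau in WT males, 0.10 for KO in PBS males, -0.17 for KO Tau against WT PBS in males, -0.12 for KO in Tau males and -0.20 for Tau in KO males, with medians over all genes tested of -0.0085, 0.0095, -0.0032, 0.0072 and 0.0009. The last 3 comparisons share the male KO Tau libraries. Without male KO Tau 711 the members' median for KO in Tau males was -0.0345, and without 712 it was -0.28.

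**Figure D2:**
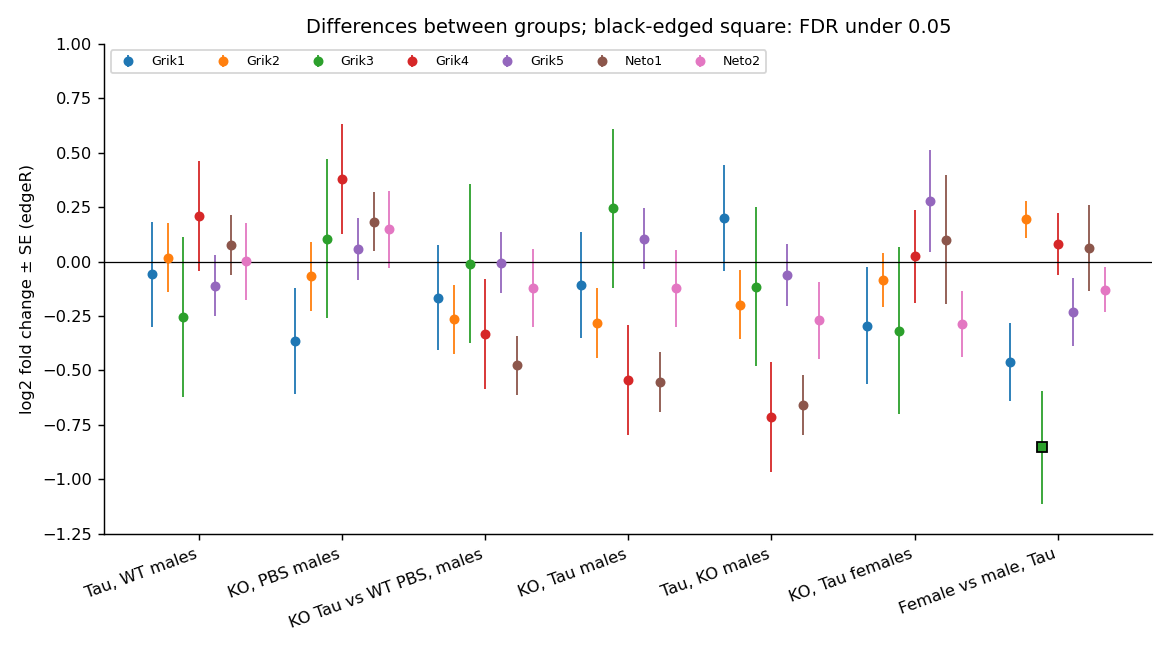
log2 fold change with its standard error (edgeR) for the 7 genes in 7 comparisons, with the sign of the first-named condition; a black-edged square marks FDR under 0.05. Grik3 between the sexes (-0.85) is the single square, and Neto1 is at -0.48 to -0.66 in the 3 comparisons of male KO Tau with another male group.

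Among the subunits that can form channels alone, Grik1 (GluK1; ENSMUSG00000022935.16, GRCm38 chromosome 16, 87895900 to 88290265, minus strand) had the fewest counts. Male WT PBS had the highest mean, 14.9 ± 1.32 CPM (SD, n = 3), followed by 14.4 ± 1.92 in male WT Tau, 13.2 ± 4.70 in male KO Tau, 11.9 ± 2.79 in female WT Tau (n = 2), 11.1 ± 3.23 in male KO PBS and 9.32 ± 1.87 in female KO Tau. All 5 neighbouring pairs in that order overlapped. Within male KO Tau the libraries lay at 8.96, 18.2 and 12.3 CPM (711, 712 and 713), a range that holds all 6 male WT values. No comparison of genotype or Tau called Grik1. Between the sexes under Tau it differed by -0.46 on the log2 scale (SE 0.18, edgeR FDR 0.0814), with 7.45 to 13.8 CPM in 5 female and 8.96 to 18.2 CPM in 6 male libraries.

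Grik2 (GluK2; ENSMUSG00000056073.16, chromosome 10, 49094833 to 49788766, minus strand) encodes the core subunit of mossy fibre kainate receptors. It was at 45.7, 46.7 and 49.7 CPM in male WT PBS and at 47.2, 48.5 and 49.5 CPM in male WT Tau. In male KO Tau it was at 40.7, 39.4 and 37.5 CPM (711, 712 and 713), below all 6 male WT libraries, while the male KO PBS libraries spread from 34.3 (752) to 57.6 CPM (751) around them. Set against male WT PBS the difference was -0.26 on the log2 scale (SE 0.16, edgeR FDR 0.825), and set against male WT Tau it was -0.28 (SE 0.16, FDR 0.927). With the granule score as a covariate these were -0.159 and -0.155 (SE 0.11 in both), with the CA1 score -0.14 and -0.16, and with the neocortex score -0.22 and -0.17. Over the 17 libraries Grik2 had an r of 0.81 with the granule list (rho 0.68, adjusted exact permutation p = 0.0735 and 0.101), 0.80 in the males (adjusted exact permutation p = 0.193) and 0.89 without male KO PBS 752 and male KO Tau 712. Female libraries were at 53.4 and 55.8 CPM in WT Tau and at 41.9, 47.1 and 61.1 CPM in KO Tau. Between the sexes under Tau the log2 fold change was 0.19 (SE 0.08, FDR 0.109).

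Full separation of the libraries in a comparison, as in Grik2, was frequent across the transcriptome. Among 11685 genes with a mean of at least 5 CPM, full separation in either direction was seen for 12.1% (Tau in WT males), 12.2% (KO in PBS males), 15.5% (KO Tau against WT PBS), 13.2% (KO in Tau males), 9.12% (Tau in KO males) and 16.3% (KO in Tau females). For the 7 members the counts were 1 (Grik4, higher), 0, 2 (Grik2 and Neto1, both lower), 3 (Grik2, Grik4 and Neto1, all lower), 1 (Neto1, lower) and 2 (Grik3 and Neto2, both lower).

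Grik3 (GluK3; ENSMUSG00000001985.9, chromosome 4, 125490700 to 125714173, plus strand), a subunit of low glutamate sensitivity, varied most. It ran from 26.7 to 126 CPM, a 4.72-fold range, and its pooled within-group SD of 0.50 in log2 CPM stood at the 95.4th percentile of 11680 genes (median SD of genes 0.18). Male WT PBS libraries held 80.1, 78.3 and 89.4 CPM (791, 792 and 793) and male WT Tau 67.7, 54.2 and 87.6 CPM (771, 772 and 773). Male KO PBS libraries held 57.6, 126 and 73.6 CPM (751, 752 and 753) and male KO Tau 37.4, 115.5 and 92.1 CPM (711, 712 and 713). The KO groups thus bracketed the WT groups, and the difference for KO in Tau males was 0.24 on the log2 scale (SE 0.37, edgeR FDR 0.956). Female WT Tau libraries held 51.5 and 47.9 CPM (331 and 341) and female KO Tau 45.5, 26.7 and 43.5 CPM (314, 324 and 325). All 5 were below each male library except male KO Tau 711. In the order of group means, the step from male WT Tau to female WT Tau and the step from there to female KO Tau did not overlap, while the 4 male groups did. Within females the KO difference was -0.32 (SE 0.38, FDR 0.997).

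Between the sexes under Tau, Grik3 was lower in females by a log2 difference of -0.85 (SE 0.26, edgeR FDR 0.0369; 43.0 ± 9.59 CPM, SD, n = 5, against 75.8 ± 28.2 CPM, n = 6). This comparison called 23.8% of genes (39.8% at an unadjusted p under 0.05, with 3 of the 7 members), and sex cannot be told apart from any batch that the female libraries shared. The call held in 3 of the 11 fits that left out a replicate (without male WT Tau 772, male KO Tau 711 or female KO Tau 314). It did not hold without male WT Tau 771 or 773, male KO Tau 712 or 713, female WT Tau 331 or 341 or female KO Tau 324 or 325, where FDR ran up to 0.12 and the log2 fold change from -0.88 to -0.67. DESeq2 (adjusted p = 0.00686, 21.4% of genes called) and voom with quality weights (adjusted p = 0.00432, 40.1%) also called Grik3, and voom called Grik1 as well (-0.52, adjusted p = 0.0252). Over all 6 groups at once, where 19.0% of 15594 genes passed the FDR and 34.2% had an unadjusted p under 0.05, 0 members passed, and Grik3 alone was under 0.05 before adjustment (edgeR FDR 0.0805).

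**Figure D3:**
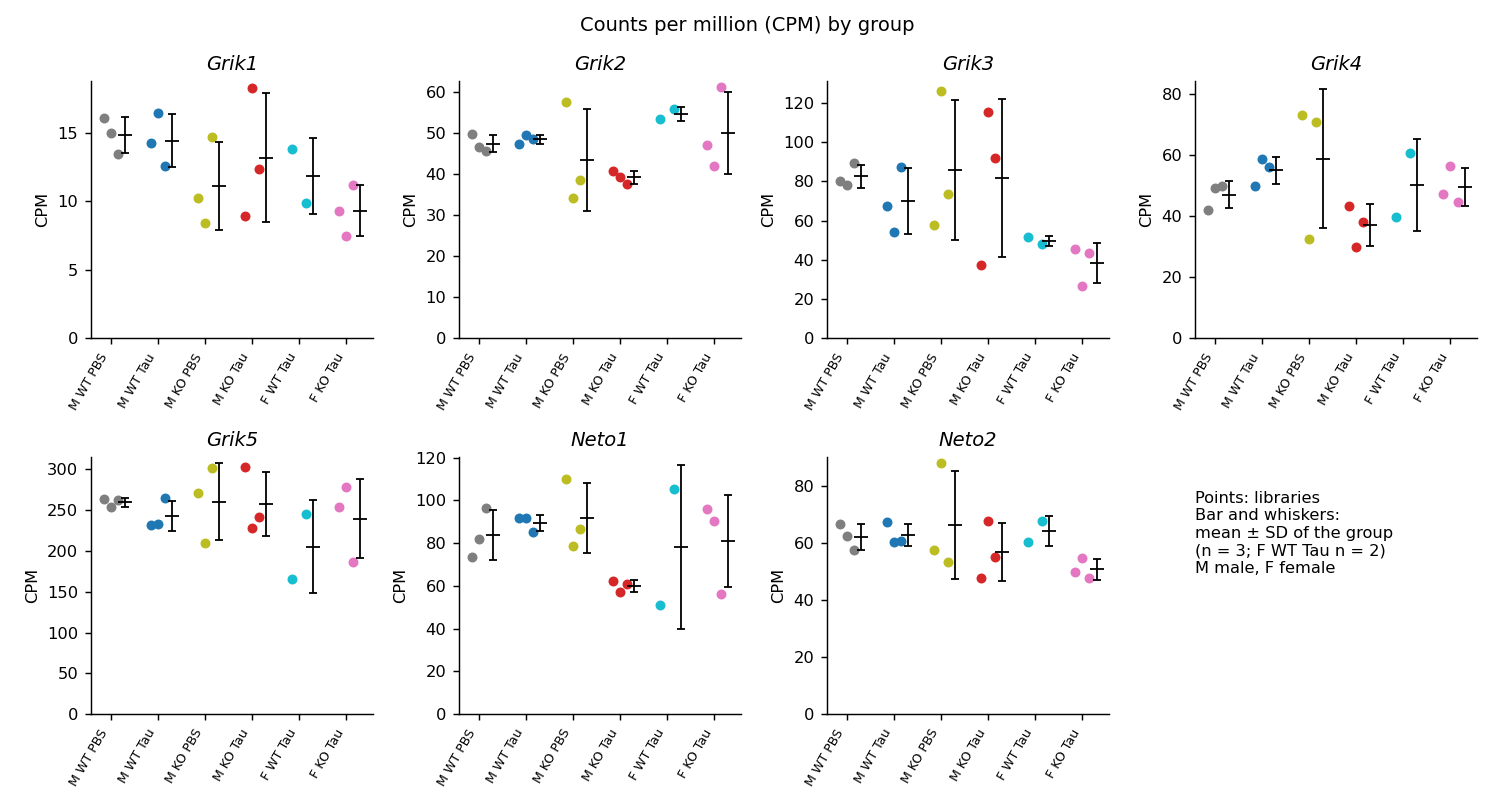
CPM of each gene by group, 1 point per library, with mean ± SD. Neto1 in male KO Tau lies at 57.1 to 62.4 CPM, below the 9 other male libraries, and Grik3 in the 5 female libraries lies at 26.7 to 51.5 CPM.

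Across libraries, Grik3 followed the neocortex list. On deviations from group means, Pearson's r was 0.91 (adjusted exact permutation p = 0.00135) and Spearman's rho 0.92 (adjusted exact permutation p = 0.0027) over 17 libraries, r was 0.94 in the 12 males (adjusted exact permutation p = 0.0162) and 0.91 without male KO PBS 752 and male KO Tau 712. This list was added after the spread of Grik3 had been seen, and the values are adjusted over its 7 members. Permutations were made within groups (15552 in all, 1296 for the males). With the 9-gene inhibitory neuron list, one of 4 planned lists, r was 0.94 (rho 0.88, adjusted exact permutation p = 0.0275 and 0.06 over 28 relations). Summed inhibitory markers (9 of 9 with counts) were at 514 to 721 CPM in the 5 female and 654 to 1093 CPM in the 6 male Tau libraries. With the neocortex score as a covariate the sex difference of Grik3 was -0.38 (SE 0.11, edgeR FDR 0.0521), with the dentate granule score it was -0.63 (SE 0.25, FDR 0.1), and with the CA1 score it was larger at -0.97 (SE 0.34, FDR 0.102). The part of tissue makeup in these differences was not tested beyond those fits.

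Of the high-affinity subunits, Grik4 (GluK4; ENSMUSG00000032017.14, chromosome 9, 42518135 to 42944493, minus strand) is a subunit typical of CA3 pyramidal cells. Male WT PBS libraries held 41.8, 49.0 and 49.9 CPM and male WT Tau 49.9, 58.7 and 56.1 CPM, a difference of 0.21 on the log2 scale (SE 0.25, edgeR FDR 1). The male KO PBS libraries split, with 73.0 and 70.8 CPM in 751 and 753 and 32.5 CPM in 752. Male KO Tau libraries were low at 43.2, 29.8 and 38.2 CPM (711, 712 and 713), under all 3 male WT Tau libraries. For Tau in KO males the log2 difference was -0.71 (SE 0.25, edgeR FDR 0.55; negative under each alternative run), for KO in Tau males -0.54 (SE 0.25, FDR 0.927) and for the male genotype by treatment interaction -0.92 (SE 0.36, FDR 0.996). The first and the last were under 0.05 before adjustment and none passed the FDR. Females were at 39.6 and 60.7 CPM in WT Tau and at 47.3, 56.4 and 44.5 CPM in KO Tau.

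Grik4 followed the 8-gene CA3 pyramidal list. Over the 17 libraries r was 0.88 (adjusted exact permutation p = 0.0275) and rho 0.85 (adjusted exact permutation p = 0.06), in the males r was 0.87 (adjusted exact permutation p = 0.154), and without male KO PBS 752 and male KO Tau 712 r was 0.73. Other lists had r of like size. With the CA1 list r was 0.82 (adjusted exact permutation p = 0.1) and 0.92 in the males. It was 0.37 without male KO PBS 752 and female WT Tau 331. With the granule list r was 0.67 (adjusted exact permutation p = 0.225) and 0.88 in the males. It was -0.12 without male KO PBS 752 and male KO Tau 712. With the added neocortex list r was -0.80 (adjusted exact permutation p = 0.0547). Against the inhibitory list r was -0.71 (adjusted exact permutation p = 0.0275) and rho -0.83 (adjusted exact permutation p = 0.0396), and in the 12 males r was -0.76 and rho -0.92 (both adjusted exact permutation p = 0.0216). Without female KO Tau 324 and 325 r was -0.71. By rank in the males 2 other relations of the 28 passed, the granule list with Grik3 (rho = -0.90, adjusted exact permutation p = 0.0288) and the inhibitory list with Neto2 (rho = 0.90, adjusted exact permutation p = 0.0288). The CA3 score was 3.55 in male KO PBS 752 and 3.51 in male KO Tau 712, which also had the lowest Grik4 of the 17, and 4.24 to 4.92 in the other 15. The Grik4 difference for Tau in KO males was -0.69 with the CA1 score as a covariate (SE 0.12, edgeR FDR 0.201), -0.69 with the granule score (SE 0.13, FDR 0.0985) and -0.49 with the neocortex score (SE 0.16, FDR 0.184). The interaction was -0.57 with the neocortex score (SE 0.23, FDR 0.525), -0.85 with the granule score and -0.92 with the CA1 score. For KO in Tau males these fits gave -0.34, -0.32 and -0.26 in the same order.

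Grik5 (GluK5; ENSMUSG00000003378.9, chromosome 7, 25009849 to 25072346, minus strand) had the smallest relative spread over the libraries, with a coefficient of variation of 14.8% against 39.7% for Grik3. Group means were 261 ± 47.0 CPM in male KO PBS (SD, n = 3), 260 ± 5.54 in male WT PBS, 257 ± 39.6 in male KO Tau, 243 ± 18.5 in male WT Tau, 240 ± 48.1 in female KO Tau and 205 ± 56.8 in female WT Tau (n = 2). All 5 neighbouring pairs overlapped. The low values were those of female WT Tau 331 (165 CPM) and female KO Tau 325 (186 CPM), the female libraries with the lowest CA1 score. Both also had the highest scores of a 6-gene thalamus list among the 17 libraries (5.83 and 5.46). Female KO Tau 324, next at 5.24, held 279 CPM. The relation of the thalamus list to Grik5 was not tested. Differences were between -0.11 and 0.11 on the log2 scale in the 5 pairwise male comparisons, with SE 0.14 in each.

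Neto1 (ENSMUSG00000050321.3, chromosome 18, 86394952 to 86506718, plus strand), an auxiliary protein of kainate receptors that also binds NMDA receptors, was the member with the clearest separation of male KO Tau. Its libraries held 62.4, 57.1 and 60.7 CPM (711, 712 and 713; 60.0 ± 2.72, SD, n = 3). The male WT PBS libraries held 73.4, 81.8 and 96.7 CPM (791, 792 and 793), male WT Tau 91.7, 91.5 and 85.3 CPM (771, 772 and 773) and male KO PBS 110, 78.6 and 86.5 CPM (751, 752 and 753). All 3 male KO Tau libraries were thus below the 9 other male libraries, a pattern shared by 0.924% of genes with a mean of at least 5 CPM and by no other member. That share counts the lower direction only, unlike the separation shares given above. The pattern was defined from Neto1 itself, so the share is a description and no test. In edgeR the log2 fold change of male KO Tau was -0.48 against WT PBS (SE 0.14, FDR 0.783), -0.55 against WT Tau (SE 0.14, FDR 0.927) and -0.66 against KO PBS (SE 0.14, FDR 0.55). These comparisons share the male KO Tau libraries. The genotype by treatment interaction was -0.74 (SE 0.19, FDR 0.996) and the Tau effect averaged over genotypes -0.29 (SE 0.10, FDR 0.888). All 5 values were under 0.05 before adjustment and none passed the FDR over 15098 genes.

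The call for Neto1 depended on the tool. DESeq2 on the 12 males called Neto1 for Tau in KO males (-0.66, adjusted p = 0.0226, 0.185% of genes called). DESeq2 on the compared groups alone called it for KO in Tau males (-0.55, adjusted p = 0.00157, 0.144% of genes). Without male KO Tau 711 DESeq2 on the compared groups called 7.13% of genes for KO in Tau males, 4 members among them, namely Neto1 (-0.59, adjusted p = 1.27e-07), Grik4 (-0.68, adjusted p = 0.000147), Grik2 (-0.32, adjusted p = 0.0304) and, in the other direction, Grik3 (0.59, adjusted p = 0.0304). For KO Tau against WT PBS the same fit called 5.33% of genes, with Neto1 (-0.51, adjusted p = 0.00572) and Grik4 (-0.46, adjusted p = 0.0413). This reduced fit was run without 711 only. The male KO Tau libraries it kept, 712 and 713, had neocortex scores of 6.10 and 5.92. Male WT Tau was at 4.71 to 5.36 and male WT PBS at 5.18 to 5.30. The part of tissue makeup in these calls was not tested. The direction of the Neto1 difference was negative under each alternative run in all 3 comparisons, with log2 fold changes from -0.76 to -0.36.

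Neto1 followed the CA1 list over the 17 libraries (r = 0.78, adjusted exact permutation p = 0.0275; rho 0.78, adjusted exact permutation p = 0.0761), with r of 0.59 in the males (adjusted exact permutation p = 0.491) and 0.83 without male KO PBS 752 and female WT Tau 331. This relation was not particular to Neto1. The r with this list was 0.87 for Grik5 (adjusted exact permutation p = 0.0735) and 0.82 for Grik4 (adjusted exact permutation p = 0.1). In the males these were 0.82 and 0.92. The CA1 score was 6.40 to 6.71 in male KO Tau and 6.80 to 6.91 in the other male libraries except male KO PBS 752 (5.59), in which Neto1 was at 78.6 CPM. With the CA1 score as a covariate the Neto1 difference of male KO Tau was -0.38 against WT PBS (SE 0.13, FDR 0.481), -0.46 against WT Tau (SE 0.13, FDR 0.91) and -0.67 against KO PBS (SE 0.12, FDR 0.201). The score of the 10 choroid plexus markers was 5.53 in male KO Tau 713 against 2.42 in 711, 1.12 in 712 and 0.35 to 3.51 in the other male libraries. The relation of this score to Neto1 was not tested.

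In females Neto1 split within both genotypes, with 51.0 and 105 CPM in WT Tau (331 and 341) and 95.8, 90.6 and 56.4 CPM in KO Tau (314, 324 and 325). The low libraries, 331 and 325, were those with low CA1 scores and with the highest thalamus scores. The relation of the thalamus list to Neto1 was not tested. The KO difference in females was 0.10 (SE 0.29, edgeR FDR 0.997) and the sex by genotype interaction 0.65 (SE 0.40, FDR 0.978). With the CA1 score as a covariate these became -0.22 (SE 0.12, FDR 1) and 0.01 (SE 0.18, FDR 1). A difference between the sexes in the KO effect was shown neither with nor without the covariate. The part of tissue makeup in these values was not tested.

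**Figure D4:**
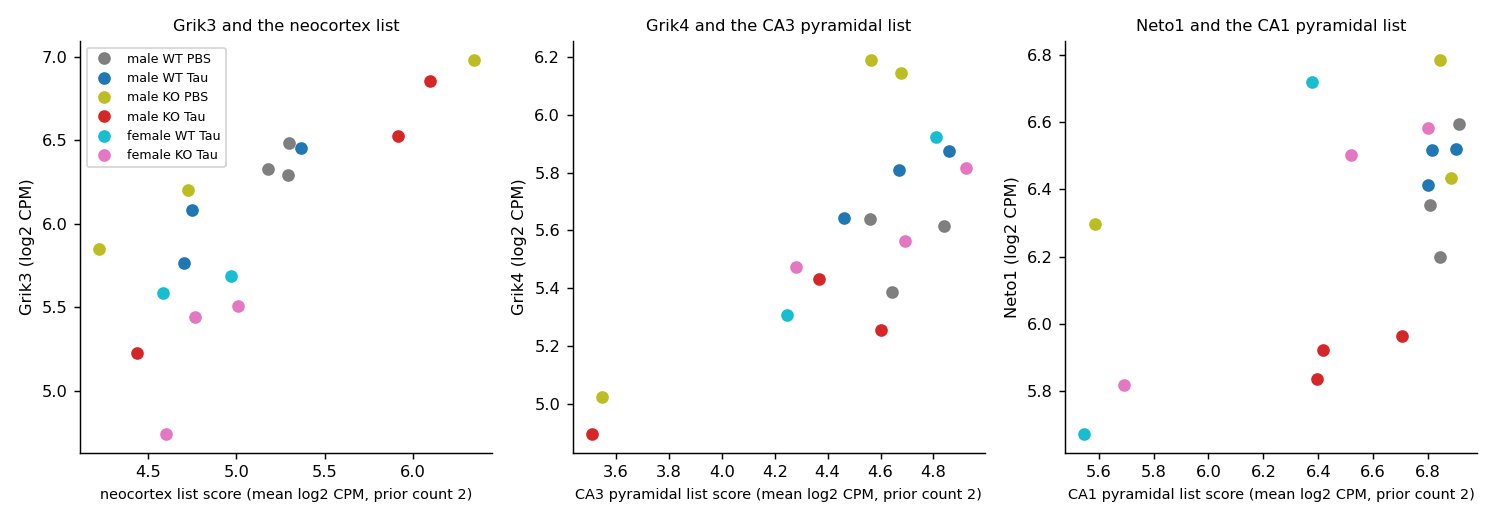
Grik3, Grik4 and Neto1 (log2 CPM) against the neocortex, CA3 pyramidal and CA1 pyramidal list scores (mean log2 CPM, prior count 2), 1 point per library coloured by group. Grik3 is higher at higher neocortex scores (r = 0.91 within groups), and the male KO Tau points lie lowest among the males for Neto1 at CA1 scores of 6.40 to 6.71.

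Neto2 (ENSMUSG00000036902.11, chromosome 8, 85636588 to 85700924, minus strand), the other auxiliary protein, was at 66.6, 62.4 and 57.5 CPM in male WT PBS and 67.5, 60.3 and 60.8 CPM in male WT Tau. Male KO PBS libraries held 57.5, 88.3 and 53.4 CPM (751, 752 and 753), and 752 was the highest of the 17. Male KO Tau libraries held 47.8, 67.7 and 55.1 CPM (711, 712 and 713) and overlapped each other male group. In females the KO Tau libraries (49.8, 54.8 and 47.9 CPM) were all below the WT Tau libraries (60.5 and 67.9 CPM), a log2 difference of -0.29 (SE 0.15, edgeR FDR 0.997).

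Members were also compared with each other on deviations from group means, in 21 pairs chosen after the spread had been seen. Over the 17 libraries no pair passed after adjustment. The smallest adjusted p belonged to Grik4 with Grik5 (r = 0.78, rho = 0.75, adjusted exact permutation p = 0.0547 and 0.171) and Grik3 with Grik4 (r = -0.69, rho = -0.75, adjusted exact permutation p = 0.0547 and 0.0824). Without the 2 libraries farthest from the median these r were 0.77 and -0.52. Grik5 with Neto1 had an r of 0.75 (rho 0.67, adjusted exact permutation p = 0.269 and 0.272), and 0.30 without female WT Tau 331 and female KO Tau 325. In the 12 males 1 pair passed by rank, Grik4 with Neto2 (rho = -0.94, adjusted exact permutation p = 0.0324; r = -0.97, adjusted exact permutation p = 0.081). Over the 17 libraries the r of this pair was -0.74 (rho -0.52, adjusted exact permutation p = 0.277 and 0.345), and without male KO PBS 752 and male KO Tau 712 it was 0.13. For the subunits that can form channels alone r was 0.20 (Grik1 and Grik2), 0.34 (Grik1 and Grik3) and -0.28 (Grik2 and Grik3), with rho of 0.17, 0.20 and -0.30 and adjusted exact permutation p of 0.659 or more.

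The genes whose within-group pattern over the 17 libraries was most like that of each member were sought among 11684 genes, as a description of likeness in libraries that share their makeup. Grik3 was nearest to Cobl (r = 0.98) and Pknox2 (r = 0.98), and Grik4 to Myo5b (r = 0.98) and Wbscr17 (r = 0.97). Cobl ran from 16.1 to 168 CPM and Myo5b from 38.8 to 168 CPM, so both neighbours spread as widely as or more widely than the members. Grik5 was nearest to Mark4 (r = 0.96) and Agap3 (r = 0.94), Grik2 to Zfp667 (r = 0.96) and Mfap3 (r = 0.94), and Grik1 to Nynrin (r = 0.90) and Tox2 (r = 0.90). Neto1 was nearest to Sstr3 (r = 0.93), a somatostatin receptor gene, and Wdr7 (r = 0.92), and Neto2 to Senp5 (r = 0.96) and Tmem56 (r = 0.95).

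A list of 21 genes known to bind, place, edit or modulate kainate receptors gave the setting of the family. All 21 were tested and 0 passed the FDR in the comparisons of genotype or Tau. The smallest unadjusted p in KO Tau against WT PBS in males were those of Grip1, a scaffold that binds receptor tails (-0.42, SE 0.14, edgeR FDR 0.783), and Nsf, the ATPase of membrane fusion (-0.31, SE 0.14, FDR 0.784). Grip1 was at 16.3 to 21.8 CPM in male KO Tau and at 24.3 to 29.2 CPM in male WT PBS. Between the sexes under Tau 7 of 21 passed, 2 higher and 5 lower in females, against 23.8% of all genes. Among the higher ones was Adarb1, which encodes the enzyme that edits the pore site of GluK1 and GluK2 mRNA (0.66, SE 0.17, FDR 0.0224). The lower ones were Slc30a3, the vesicular zinc transporter of mossy fibres (-0.66, SE 0.13, FDR 0.0103), Nsf (-0.54, SE 0.12, FDR 0.0144), the RNA editing enzyme gene Adar (-0.51, SE 0.15, FDR 0.0317), the neurexin gene Nrxn3 (-0.44, SE 0.15, FDR 0.0477) and the scaffold gene Pick1 (-0.37, SE 0.08, FDR 0.0118). Summed astrocyte markers were at 2403 to 4095 CPM in the 5 female and 1173 to 2454 CPM in the 6 male Tau libraries, and their part in these differences was not tested.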

How the data were processed

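The authors aligned reads with STAR 2.5.2 to mm10 (GRCm38) and counted reads over exons with HTSeq 0.9.1 in reverse-stranded mode. The deposited values are raw read counts per gene symbol. The annotation release is not given in the sources used here, and the library kit named in the labels does not mark strand, so reads of Neto1 and Neto2 and of genes annotated antisense to them may not be separated. Positions and lengths came from GENCODE M21 (GRCm38). CPM and FPKM were computed here from counts and library totals.

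Counts were tested in R 4.3.3 with edgeR 4.0.16 (quasi-likelihood F-test, TMM, filterByExpr with minimum count 10 and minimum total count 15, Benjamini-Hochberg FDR 0.05). Contrasts among the 12 males came from 1 fit (15098 genes), those under Tau with females from 1 fit of 11 libraries (15419), and the test over 6 groups from 1 fit of 17 (15594). On simulated counts for KO Tau against WT PBS in males (15010 genes) edgeR recovered 79.0% of genes changed by 1 on the log2 scale and 98.0% changed by 2. The simulation planted changes in 100 genes of each size, and 11 unchanged genes were called. In the real comparison 1 of 15098 genes passed. The FDR threshold there was thus stricter, and these rates do not carry over to it. Levels were tested with 100000 sign flips, whose smallest p is 1e-05. Each marker score is the average log2 CPM of its list (prior count 2), and relations used all within-group permutations. The design text calls the replicates biological. Of 136 pairs of libraries 0 were identical.

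Alternatives were DESeq2 1.42.0, limma 3.58.1 voom with quality weights, RLE factors, no low-count filter, the dentate granule score as a covariate, a fit of all 17 libraries, fits of the compared groups alone, and each replicate left out. The neocortex and CA1 scores as covariates were added after seeing the data. The members and lists were chosen with earlier results of these data known. Named genes were the 7 members, Acss2, partner genes past the FDR or else the 2 with the smallest p for KO Tau against WT PBS, and the 2 genes most like each member. The values of 1 partner gene are not reported here. No sequence is shown, since no result rests on one.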

Additional observations from a re-analysis of the deposited data

How the results depend on the processing

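Most values kept their direction and their side of the threshold. Of the alternatives for counts of members called, 0 became 2 for KO Tau against WT PBS and 4 for KO in Tau males with DESeq2 on the compared groups without male KO Tau 711, 1 for KO in Tau males with DESeq2 on the compared groups, and 1 for Tau in KO males with DESeq2. For the sex difference, 1 became 0 with the granule or the neocortex score as a covariate, 2 with voom and 0 to 2 with a replicate left out, and with the CA1 score the 1 gene called was Neto1 (0.50, FDR 0.033), while Grik3 was at -0.97 (FDR 0.102). For any difference among the 6 groups, 0 became 1 with the granule or neocortex score or DESeq2, 2 with the CA1 score, 4 with voom and 0 to 1 with a replicate left out. The main fit of that test called 19.0% of all genes. The shares of its alternative fits are not given here, so these counts are not read as a result about the members. The causes of these changes were not tested. With the mean coding transcript the log2 ratio was -0.42 for Neto2 over Neto1, -0.967 for Grik3 over Grik2 and 0.537 for Grik4 over Grik3, and the shares were 14.0% (Grik2), 3.9% (Grik1), 64.1% (Grik5) and 74.5% (Grik4 and Grik5). With the longest coding transcript the shares were 3.8% (Grik1) and 9.3% (Grik4). These shifts follow from the lengths alone. The count of marker relations past adjusted p 0.05 was 4 by Pearson's r and 1 by Spearman's rho over 17 libraries, and 1 by r in the 12 males. By rho in the males 3 passed, the inhibitory list with Grik4 and Neto2 and the granule list with Grik3. The Grik3 difference for KO in Tau males became -0.18, -0.24 and -0.10 with the granule, neocortex and CA1 scores and ran from -0.08 to 0.58 with a replicate left out. The female KO difference of Neto1 became -0.22 with the CA1 score and ran from -0.35 to 0.76 with a replicate left out. Of 64 further pairs of a member and a comparison 36 changed sign under some alternative, in 98 values, of which 0 were past the threshold. No paired analysis was possible because no replicate number occurs in more than one group. With 2 or 3 libraries a group, changes of about 1 or less on the log2 scale can be missed, and so can larger ones.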
